A study of Mus musculus with 22 samples.

Results

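The 6 genes of 1 small signalling family were followed through the fetal urogenital sinus of the mouse: the 5 Cdc42 effector protein genes, Cdc42ep1, Cdc42ep2, Cdc42ep3, Cdc42ep4 and Cdc42ep5, and Cdc42 itself, out of 30102 genes with a probe set of their own on the array. A probe set was used where the listed gene was its only symbol in the platform's probe table, and each of the 6 genes had exactly 1 such probe set. On all 22 arrays the 6 exceeded the array's own median over transcript clusters, so all 6 were among the 19050 genes that passed the filter on dim values and were tested. Cdc42ep1 was chosen from its difference between knockout and control in the same arrays, so its knockout differences are given as a description with no test. The other 5 were taken in with it because they belong to the same family.

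Total RNA of the urogenital sinus epithelium was hybridised to Affymetrix whole-transcript arrays at embryonic day E16.75, on the C57BL/6J background. The knockouts were ShhCre/+; Sox9fl/fl, with Cre made from the Shh locus, and comprised 6 arrays of males and 5 of females. The littermate controls were Shh+/+; Sox9+/fl, again with 6 arrays of males and 5 of females, and already carried 1 floxed Sox9 allele although the design text calls them wild type. The epithelium was freed from the mesenchyme with enzymes and by hand, and the epithelium of bladder and urethra was taken away. Because knockouts and controls differ at Shh as well as at Sox9, a difference at any other gene cannot be assigned to the loss of Sox9 rather than to Cre at 1 Shh allele. Cre made from this locus acts in cells that express Shh. The labels call the arrays biological replicates but do not say whether an array holds 1 fetus or a pool, nor which arrays share a litter.

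Cdc42 is a small GTPase that switches between a GTP-bound and a GDP-bound form and sets cell polarity, filopodia and the actin cytoskeleton in epithelia. The Cdc42 effector proteins, also called Borg proteins, bind the GTP-bound form through a CRIB motif and bind septins, the GTPases that assemble into filaments at the cell cortex. In the male fetus the urogenital sinus epithelium gives rise to prostatic buds under androgen, and Sox9 is a transcription factor of the SOX family expressed in that bud epithelium.

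Values are the deposited log2 values, so a difference of 1 is a doubling. The signal of 1 probe set is not comparable with that of another, and only differences of the same gene between groups are read. The arrays of 1 group correlated with each other at 0.985 to 0.995 over the genes tested, and arrays of different groups at 0.981 to 0.995. Sox9 was lower in knockouts, by 1.07 in males (SE 0.08) and by 1.00 in females (SE 0.09), to 47.6% and 49.9% of control. The labels do not say whether its probes fall inside the deleted part of the gene. Shh was also lower, by 0.45 in males and by 0.56 in females (limma adjusted p = 0.00874 and 0.0128). The 11 epithelial markers averaged 11.23 to 11.26 in the 4 groups, and single ones ran from 8.74 (Foxa2) to 13.22 (Krt15) over all arrays. Among the mesenchymal markers Fn1 averaged 11.33 and Dcn 9.87. The others averaged from 4.92 (Tcf21, which did not pass the filter on dim values) to 7.58 (Col1a1). Since probe sets are not comparable in level, no share of any cell type is read from marker levels. Of the markers of other cells, those of urothelium averaged between 9.88 in female controls and 10.17 in female knockouts although bladder epithelium had been removed. Male control replicate 6 was the highest of its group for mesenchyme (7.86), smooth muscle (7.06) and endothelium (5.67), where the other 3 groups averaged 6.94 to 6.97, 6.13 to 6.14 and 5.01 to 5.05.

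Cdc42ep1, whose protein (Borg5) binds Cdc42 and septins, was lower in knockouts of both sexes and lower in males of both genotypes. In male controls it ran from 7.89 to 8.20 with a median of 8.13, and in male knockouts from 7.57 to 7.92 with a median of 7.71. In female controls the 5 arrays read 8.31, 8.45, 8.45, 8.29 and 8.21, and in female knockouts 7.89, 8.07, 7.88, 7.93 and 8.05. All 5 female knockouts lay below all 5 female controls, and 5 of the 6 male knockouts lay below every male control. The exceptions in males were knockout replicate 5 at 7.92 and control replicate 1 at 7.89.

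**Figure D1:**
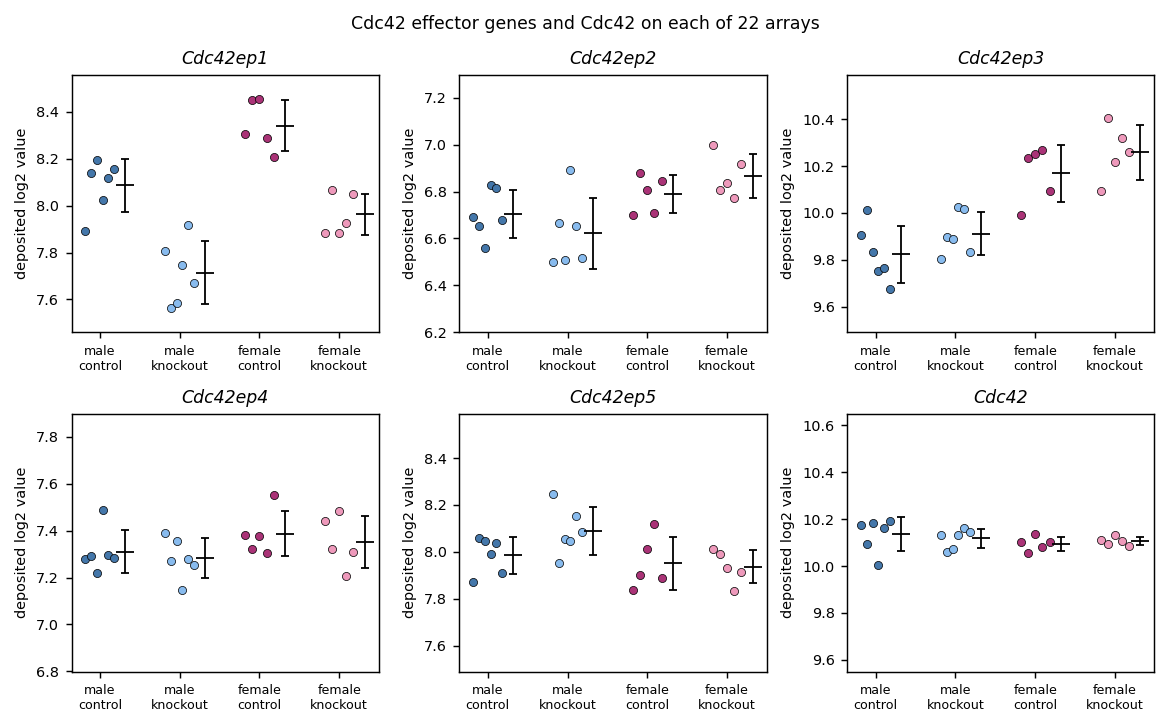
Deposited log2 values of the 6 genes on 22 arrays. Each point is 1 array, each bar the group's mean with its SD, and every panel spans the same range of 1.1 log2 units around its own centre. Cdc42ep1 is lower in knockouts of both sexes, Cdc42ep3 is higher in females, and Cdc42 varies least among the 6.

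The group means of Cdc42ep1 were 8.09 ± 0.11 in male controls and 7.72 ± 0.14 in male knockouts (SD, n = 6 each). In females they were 8.34 ± 0.11 in controls and 7.96 ± 0.09 in knockouts (SD, n = 5 each). The difference was -0.37 in males (SE 0.07, 95% interval -0.51 to -0.24) and -0.38 in females (SE 0.07, interval -0.53 to -0.23). Knockouts thus carried 77.3% of the control signal in males and 76.9% in females, and averaged over the sexes 77.1% (interval 71.9% to 82.6%). The difference between the sexes in this change was 0.01, with an interval from -0.19 to 0.21. Because these contrasts chose the gene, nothing is read from their size or from their intervals, which take no account of that choice. The share of all genes called stands here only for reference: 0.199% in males and 0.0315% in females, with 0.247% for the average of both, at a limma adjusted p under 0.05. Groups that did not overlap were found for 0.420% of genes in males and 1.39% in females. In bulk RNA, fewer cells that express a gene and less of its RNA per cell cannot be told apart.

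Ordered by level, Cdc42ep1 was highest in female controls, then in male controls, female knockouts and male knockouts. The neighbours male control and female knockout differed by 0.12, close to the spread of arrays within groups (SD 0.11), and their arrays overlapped. The highest and lowest groups were 0.63 apart, which is 1.54-fold. Without male control replicate 6, the array high in mesenchymal and smooth muscle markers, the male difference was -0.36 and the average over the sexes -0.37. No tested marker of mesenchyme (11 of 14 tested), smooth muscle (10), endothelium (4), urothelium (7) or immune cells (7) was called between knockouts and controls averaged over the sexes, where 0.247% of all genes were. All 7 urothelial markers nevertheless had estimates above 0, from 0.08 to 0.36 with a median of 0.16 (0.10 to 0.55 in females alone), and so had all 7 immune markers, from 0.01 to 0.18. The medians for mesenchyme, smooth muscle and endothelium were 0.02, -0.07 and -0.04. The group averages of the mesenchymal list ran from 6.94 in male knockouts to 7.04 in male controls, and its single arrays from 6.74 to 7.86. The part of these cells in the level of Cdc42ep1 was not tested further.

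The 4 other effector genes and Cdc42 were not called in any knockout comparison. Averaged over the sexes, knockouts stood at 99.8% of control for Cdc42ep2 (95% interval 93.2% to 107%), 106% for Cdc42ep3 (99.3% to 114%), 97.9% for Cdc42ep4 (92.2% to 104%), 103% for Cdc42ep5 (97.3% to 109%) and 99.8% for Cdc42 (96.0% to 104%). The limma adjusted p-values were 0.997, 0.764, 0.948, 0.916 and 0.992 in that order. With 0.247% of genes called, the absence of a call among 5 genes says little about them, and the intervals carry the result. The change in males was not distinguishable from that in females for any of the 5, with interaction estimates from -0.16 (Cdc42ep2, adjusted p = 0.997) to 0.12 (Cdc42ep5, adjusted p = 0.997). Of all genes tested 0.00525% were called for that interaction.

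**Figure D2:**
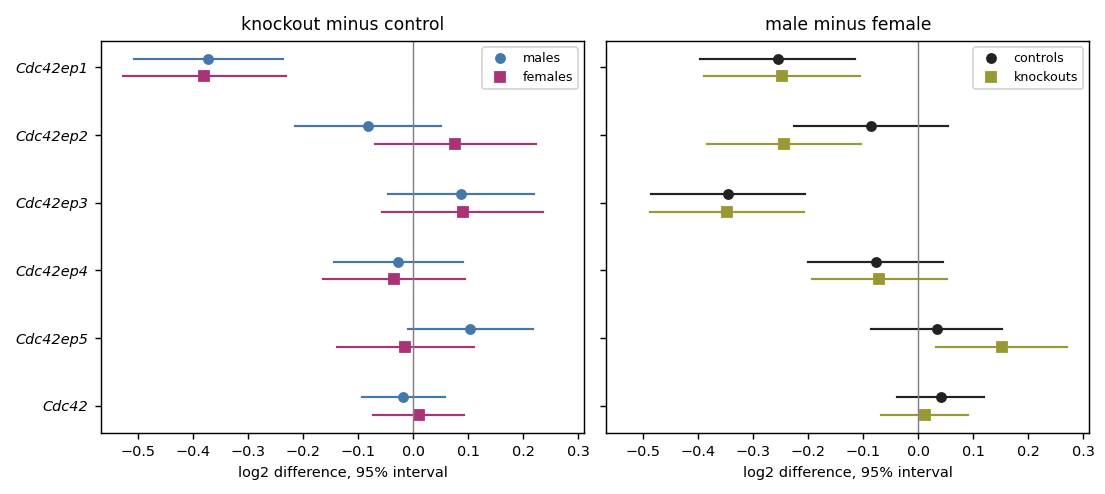
Log2 differences of the 6 genes with 95% intervals from the limma fit, knockout minus control on the left and male minus female on the right. The knockout differences of Cdc42ep1 are those by which the gene was chosen, and their intervals take no account of that choice. Its sex differences within a genotype use the same group means. On the right, the intervals of Cdc42ep3 lie below 0 in both genotypes (-0.48 to -0.21 in controls), and those of Cdc42ep1 are a description.

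Of the 6 genes 3 were called between the sexes, in a tissue where many genes differed between them. Averaged over the genotypes, which uses nothing of the contrast that chose Cdc42ep1, males were lower than females by 0.25 for Cdc42ep1 (SE 0.05, limma adjusted p = 0.000648), by 0.35 for Cdc42ep3 (SE 0.05, adjusted p = 1.2e-05) and by 0.16 for Cdc42ep2 (SE 0.05, adjusted p = 0.0210). All 3 are lower in males and none of the 6 was called higher. The background was 13.6% of genes called, 1244 higher and 1342 lower in males. With each array centred on its median the share higher in males among called genes moved from 48.1% to 61.2%. The directions of the 3 effector genes did not change, but Cdc42ep2 was then no longer called (-0.14, limma adjusted p = 0.114). Of the 11 epithelial markers 2 were higher in males (Shh by 0.52 and Foxa1 by 0.14) and 4 lower (Krt18 by 0.31, Foxa2 by 0.28, Krt8 by 0.18 and Trp63 by 0.11). Mesenchyme held 2 genes lower in males (Dcn by 0.32 and Fn1 by 0.30) and 1 higher (Lum by 0.40) of 11 tested, urothelium 1 higher (Psca by 0.88) of 7, and neural and glial markers 1 higher (Stmn2 by 0.29) of 3. Smooth muscle held 0 of 10, endothelium 0 of 4 and immune cells 0 of 7. Their part in the sex differences was not tested.

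Cdc42ep3, which encodes Borg2, showed the clearest difference between the sexes. In male controls it ran from 9.68 to 10.01 (median 9.80) and in male knockouts from 9.80 to 10.03 (median 9.89). Female controls read 9.99, 10.24, 10.25, 10.27 and 10.10, and female knockouts 10.09, 10.41, 10.22, 10.32 and 10.26. Every female knockout lay above every male knockout, and among controls a single female array, replicate 1 at 9.99, fell within the male range. Non-overlap of the sexes was seen for 5.64% of genes in controls and 5.82% in knockouts. The difference was -0.34 in controls (SE 0.07, adjusted p = 0.00164) and -0.35 in knockouts (SE 0.07, adjusted p = 0.00143), where 6.94% and 7.19% of genes were called. The order of groups ran from female knockouts (10.26) through female controls (10.17) and male knockouts (9.91) to male controls (9.82), and within each sex knockouts and controls overlapped.

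Cdc42ep1 differed between the sexes by -0.26 in controls (SE 0.07) and by -0.25 in knockouts (SE 0.07). Of all genes 6.94% and 7.19% were called in these comparisons. Both use group means that also enter the knockout differences that chose the gene, so they are given as a description with no test. The average over the genotypes is free of this. In controls the 6 male arrays all lay below the 5 female ones, where 5.64% of genes did not overlap in either direction. In knockouts 5 of the 6 males lay below every female, and male replicate 5 at 7.92 stood above the lowest female at 7.88. With single arrays left out, the difference ran from -0.29 to -0.22 in controls and from -0.29 to -0.22 in knockouts. The average over the genotypes kept its call in all 30 alternatives, with differences from -0.27 to -0.22.

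Cdc42ep2, which encodes Borg1, ran from 6.56 to 6.83 in male controls (median 6.68) and from 6.50 to 6.89 in male knockouts (median 6.58). Female controls read 6.70, 6.88, 6.81, 6.71 and 6.85, and female knockouts 7.00, 6.80, 6.84, 6.77 and 6.92. In knockouts 5 of the 6 males lay below every female, and in controls 4 of the 6. The sex difference was -0.24 in knockouts (adjusted p = 0.0261) and -0.09 in controls (adjusted p = 0.532), and the difference between these was not called (-0.16, adjusted p = 0.997). The average over the genotypes was no longer called with quantile normalization (-0.15, adjusted p = 0.0927), median centring (-0.14, adjusted p = 0.114) or the replicate number as a block (-0.15, adjusted p = 0.0652). The call in knockouts was also lost under these 3, with only the knockout arrays fitted (adjusted p = 0.0773), and without male knockout replicate 1 (0.0644), 3 (0.0642) or 6 (0.0668) or female knockout replicate 1 (0.0875) or 5 (0.0652).

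The starts of the 3 genes that were lower in males are shown for their base composition, from the RefSeq promoter table of build GRCm38.p6, which spans 250 bases before to 50 after each start. All 6 genes were found in it. Capitals mark the GC box, CCGCCC (on the other strand GGGCGG), which occurs in 35.7% of the 32851 promoters of this length. The first lies on chromosome 15 at chr15:78842397-78842696 on the plus strand, the second on chromosome 17 at chr17:79355042-79355341 on the minus strand and the third on chromosome 19 at chr19:5924767-5925066 on the minus strand.
Cdc42ep1: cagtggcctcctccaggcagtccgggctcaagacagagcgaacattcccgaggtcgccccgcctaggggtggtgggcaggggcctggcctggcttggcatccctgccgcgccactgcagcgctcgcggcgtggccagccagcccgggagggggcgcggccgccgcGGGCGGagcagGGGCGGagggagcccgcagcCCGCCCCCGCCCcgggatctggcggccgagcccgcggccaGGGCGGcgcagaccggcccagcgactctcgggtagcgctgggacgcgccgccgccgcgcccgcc
Cdc42ep3: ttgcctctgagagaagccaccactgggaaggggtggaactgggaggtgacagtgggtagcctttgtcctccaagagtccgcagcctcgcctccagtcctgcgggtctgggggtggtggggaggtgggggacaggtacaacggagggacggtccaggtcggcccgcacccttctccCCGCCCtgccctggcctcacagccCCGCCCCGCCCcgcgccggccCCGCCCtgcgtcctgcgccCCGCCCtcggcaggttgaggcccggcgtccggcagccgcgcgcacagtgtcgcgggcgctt
Cdc42ep2: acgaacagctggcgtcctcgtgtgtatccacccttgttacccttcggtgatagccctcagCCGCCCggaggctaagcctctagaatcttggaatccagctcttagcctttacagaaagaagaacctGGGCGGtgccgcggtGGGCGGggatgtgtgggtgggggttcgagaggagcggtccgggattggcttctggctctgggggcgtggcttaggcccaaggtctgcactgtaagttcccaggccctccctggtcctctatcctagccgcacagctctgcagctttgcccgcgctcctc
The GC content of the Cdc42ep1 window was 80.0%, a share reached by few promoters (99.0th percentile), and held 5 GC boxes. That of the Cdc42ep3 window was 73.0% (94.3rd percentile) with 5 GC boxes, and that of the Cdc42ep2 window 61.7% (74.6th percentile) with 3. The 2 starts of Cdc42ep4 had 63.3% and 63.0%, Cdc42ep5 58.7% and Cdc42 49.3%, beside a median of 52.7% for all promoters. Cdc42 had 2 GC boxes, and Cdc42ep4 and Cdc42ep5 had none in these windows. The androgen receptor hexamer AGAACA (on the other strand TGTTCT), present in 19.0% of promoters, was in no window of the 6 genes. The SOX core AACAAT (on the other strand ATTGTT), present in 10.7% of promoters, was in the windows of 2 genes, Cdc42 and the second start of Cdc42ep4, and not in that of Cdc42ep1. The surrounding 30 bases are given with the core in capitals, and its first base lies at -150 and -158 from the start. Both genes lie on the minus strand. The core reads ATTGTT for Cdc42, the form on the other strand, and AACAAT for Cdc42ep4.
Cdc42: accgtgcacatcATTGTTcatagttttatt
Cdc42ep4, second start: gggcaggcacacAACAATcggcggcggtcg
A match of letters in these windows is a description and no sign of binding.

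Cdc42ep4, Cdc42ep5 and Cdc42 were not called between the sexes. Cdc42ep4, which encodes Borg4, ran from 7.22 to 7.49 in male controls (median 7.29) and from 7.15 to 7.39 in male knockouts (median 7.27). Female controls read 7.38, 7.32, 7.38, 7.31 and 7.55, and female knockouts 7.44, 7.32, 7.48, 7.21 and 7.31. The 4 groups overlapped in every pair, with a sex difference of -0.07 averaged over the genotypes (SE 0.04, adjusted p = 0.292). Cdc42ep4 lies on chromosome 11, as does Sox9, with 6 protein-coding genes between them in the reference order. The chromosomal stretch that carries the floxed allele is present once in controls and on both copies in knockouts, so linkage to it and loss of Sox9 cannot be told apart for this gene. None of the 6 genes between was called between knockouts and controls averaged over the sexes by limma. At 47 genes called of all tested (0.247%), and 1369 at an unadjusted p under 0.05, a count of 0 among 6 says little about them.

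Cdc42ep5, which encodes Borg3, ran from 7.87 to 8.06 in male controls (median 8.01) and from 7.95 to 8.25 in male knockouts (median 8.07). Female controls read 7.84, 7.90, 8.01, 8.12 and 7.89, and female knockouts 8.01, 7.99, 7.93, 7.83 and 7.92. In knockouts 5 of the 6 males lay above every female, with a difference of 0.15 (SE 0.06, adjusted p = 0.135), and in controls the difference was 0.03 (adjusted p = 0.796). Averaged over the genotypes it was 0.09 (adjusted p = 0.150), the opposite sign to Cdc42ep1, Cdc42ep2 and Cdc42ep3, but not called.

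Cdc42, the GTPase that the 5 effectors bind, barely moved between arrays. It ran from 10.01 to 10.19 in male controls (median 10.17) and from 10.06 to 10.16 in male knockouts (median 10.13). Female controls read 10.10, 10.05, 10.14, 10.08 and 10.10, and female knockouts 10.11, 10.10, 10.13, 10.11 and 10.09. Its SD within groups was 0.05, at the 0.887th percentile of the genes tested, whose median was 0.11. The 4 group means spanned 0.04, against 0.10 for Cdc42ep4, 0.15 for Cdc42ep5, 0.24 for Cdc42ep2 and 0.43 for Cdc42ep3. The span of Cdc42ep1 holds the knockout difference that chose it and is not set beside these. The 95% interval of the average sex difference ran from -0.03 to 0.08 (adjusted p = 0.594).

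Sox9 and Cdc42ep1 differed in opposite directions between the sexes. Sox9 was higher in males by 0.40 (SE 0.06, limma adjusted p = 3.63e-05) and Cdc42ep1 lower in males by 0.25. Both were lower in knockouts, but Sox9 is the deleted gene and Cdc42ep1 was chosen by its knockout difference. That shared direction was set in advance, and nothing is read from it. Sox9 averaged 9.33 in male controls and 8.89 in female controls, and 8.26 and 7.89 in the knockouts. Since Sox9 splits the arrays by genotype, no correlation over all arrays is given. After the group means were taken off, the values of Cdc42ep1 and Sox9 correlated at r = 0.37 over 22 arrays, as a description of genes read on the same arrays. By the same measure Cdc42ep1 correlated with Cdc42ep5 at 0.46, with Cdc42ep3 at 0.29, with Cdc42 at 0.28, with Cdc42ep2 at -0.00 and with Cdc42ep4 at -0.33.

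**Figure D3:**
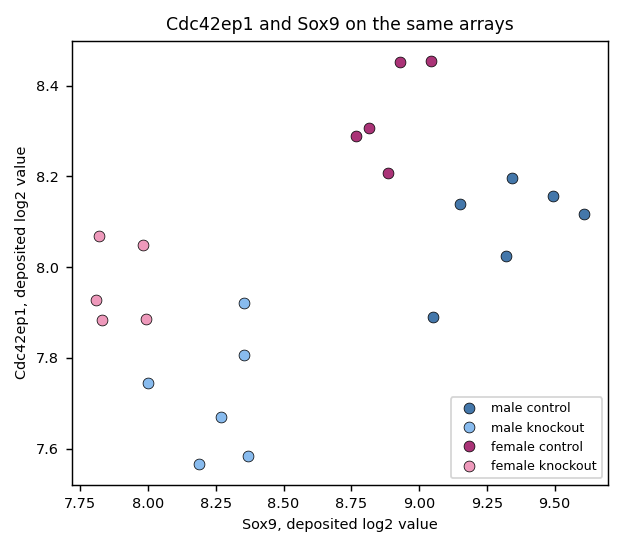
Deposited log2 values of Cdc42ep1 against Sox9 on the same 22 arrays, coloured by group. Within each sex the knockouts lie lower on average on both axes. This was set in advance by the deletion of Sox9 and the choice of Cdc42ep1. Within each genotype males lie on average to the right of and below females, with Sox9 means of 9.33 and 8.89 in controls.

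The genes whose pattern over the 22 arrays was most like that of Cdc42ep1 were Pcsk6, a proprotein convertase (Pearson r = 0.90), Mfge8, a secreted glycoprotein that binds phosphatidylserine (0.90), Rin2, a Rab5 exchange factor (0.85), Col14a1, a collagen (0.83), and Tes, a focal adhesion protein (0.83). These correlations include the differences between groups that chose Cdc42ep1. Among all 19049 other genes the median r was 0.01, and 7 genes exceeded 0.8. The genes were taken for this pattern, so their own differences are given as a description with no test. Averaged as above, Pcsk6 differed by -0.34 between knockouts and controls and by -0.18 between males and females, and Mfge8 by -0.30 and -0.34. For Col14a1 these differences were -0.95 and -0.59, for Rin2 -0.15 and -0.22, and for Tes -0.14 and -0.15.

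Least alike were Lrrc7 (r = -0.77), a protein of cell junctions and synapses, Rbbp7 (-0.77), a histone-binding subunit of chromatin complexes, and Pdzrn3 (-0.74), a ubiquitin ligase. They too were taken for their pattern: the difference between males and females was 1.00 for Lrrc7 and 0.66 for Pdzrn3, and that between knockouts and controls 0.37 and 0.41. With the group means taken off, the most alike genes were others: Ndufs8 (r = 0.89), Gm10704 (0.88), Rtraf (0.86), Gm13864 (0.84) and Gm16477 (0.84). By this measure 22 genes exceeded 0.8 and 223 exceeded 0.7, and the median r was 0.07. For Cdc42 the same measure gave Psmc6, a proteasome subunit (0.89), Gm7816 (0.86), Gm11843 (0.85), Tceal9 (0.85) and Gm12881 (0.84).

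**Figure D4:**
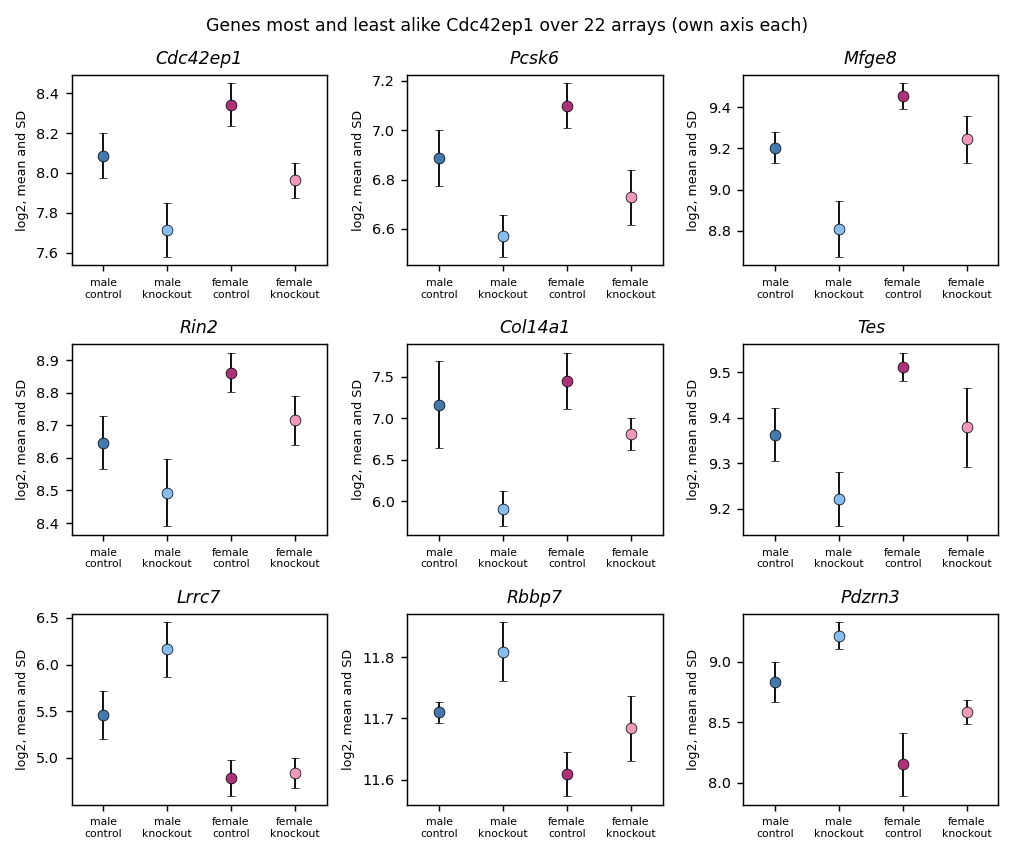
Group means with SD of Cdc42ep1, the 5 genes most like it and the 3 least like it over 22 arrays, each on its own log2 axis. The first 6 panels share the order female control above male control and male knockout lowest, for example 7.45, 7.16 and 5.91 for Col14a1, and the last 3 run the other way.

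In the chromosomal order of protein-coding genes, Cdc42ep1 has Card10 and Lgals2 beside it. Sh3bp1, which encodes a GTPase-activating protein of Cdc42 and Rac, lies 3 places away. Sh3bp1 was not called (-0.11 averaged over the sexes, adjusted p = 0.517), and Card10 stood at 0.00 between knockouts and controls and was lower in males by 0.17 (adjusted p = 0.0193). Lgals2 was not among the genes tested. Of the neighbours of the other members, Wnt4 beside Cdc42 was higher in males by 0.42 (adjusted p = 1.76e-07) and Sdk2 beside Cdc42ep4 lower in males by 0.68 (adjusted p = 1.58e-08), while neither was called between knockouts and controls.

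The wider Cdc42 pathway was followed in 4 lists of 88 genes, of which 75 were tested: exchange factors, which load Cdc42 with GTP, GTPase-activating and dissociation-inhibiting proteins, which switch it off or hold it, its other effectors, and septins. Between knockouts and controls 0 of the 75 were called in males and 0 in females by limma, against 0.199% and 0.0315% of all genes, and 1 was called averaged over the sexes, against 0.247%. That gene was Vav3, an exchange factor of the Vav family, lower by 0.23 (SE 0.05, adjusted p = 0.0360). Its call was lost in 19 of 29 alternatives, in which the adjusted p reached 0.107. The medians of the 4 lists lay between -0.05 and 0.00, beside 0.01 for all genes.

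The listed genes next in order of p in the average knockout comparison were not called. Among exchange factors these were Vav2 (-0.08, adjusted p = 0.628) and Fgd2 (0.07, adjusted p = 0.706), and among the proteins that switch Cdc42 off Sh3bp1, Srgap3 (-0.12, adjusted p = 0.720) and Arhgap21 (-0.06, adjusted p = 0.766). Among other effectors they were the formin Fmnl2 (-0.14, adjusted p = 0.662), the scaffold Iqgap1 (-0.07, adjusted p = 0.750) and the kinase Cdc42bpb (-0.06, adjusted p = 0.812). The septins with the smallest p were Septin9 (-0.07, adjusted p = 0.471), Septin3 (-0.09, adjusted p = 0.801) and Septin7 (0.09, adjusted p = 0.862).

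Between the sexes 14 of the 75 listed genes were called averaged over the genotypes, 6 higher and 8 lower in males, against a background of 13.6%. Of 21 exchange factors 2 were higher in males, Dnmbp (Tuba, which acts on Cdc42 at cell junctions) by 0.30 and Vav2 by 0.18, and 2 lower, Vav1 by 0.20 and Mcf2l by 0.11. Of 14 GTPase-activating and dissociation-inhibiting proteins, Arhgap31, a GTPase-activating protein of Cdc42 and Rac, was higher by 0.54 (SE 0.05, adjusted p = 1.04e-07). In the same list Srgap1, a GTPase-activating protein of the Slit and Robo pathway, was lower by 0.39 (SE 0.04, adjusted p = 2.3e-07), Abr by 0.17 and Arhgap21 by 0.13.

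Of the 29 other effectors, the formin Diaph3 was higher in males by 0.27 and the kinase Pak6 by 0.10 (adjusted p = 0.0499), and the kinase Pak3 was lower by 0.32 (adjusted p = 3.06e-05). Of the 11 septins, the binding partners of the effector proteins, Septin8 was higher by 0.24 (adjusted p = 0.00135), and Septin3 was lower by 0.23 and Septin6 by 0.14. The call of Pak6 was lost in 22 of 30 alternatives. Those of Septin6 and Mcf2l were lost with quantile normalization (adjusted p = 0.0835 and 0.0695) and median centring (0.152 and 0.0890), and that of Arhgap21 with median centring (0.144). The median sex difference of the lists lay between -0.0047 and 0.04, beside -0.01 for all genes.

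**Figure D5:**
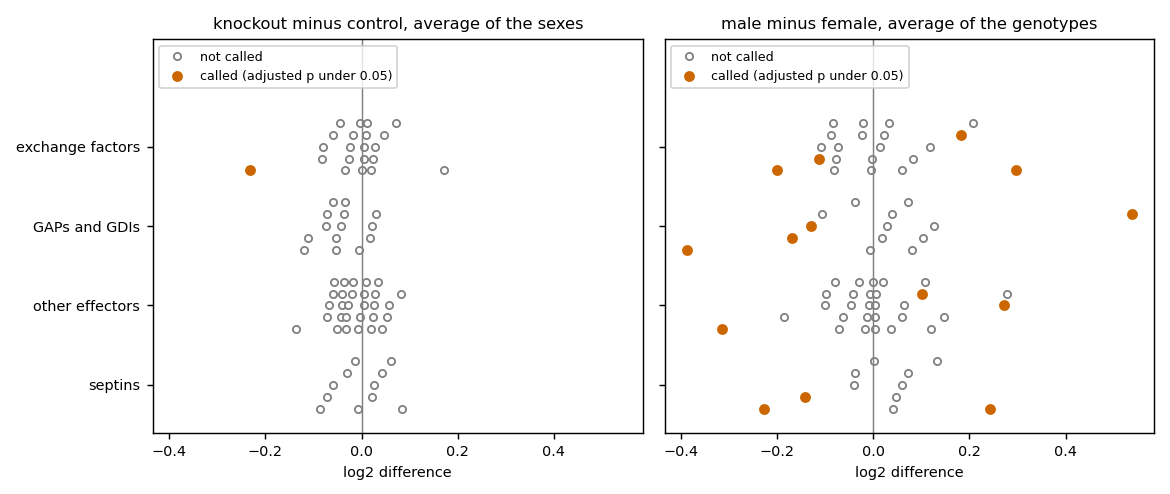
Log2 differences of the 75 tested genes of 4 Cdc42 pathway lists, knockout minus control on the left and male minus female on the right, with 1 point per gene and called genes filled. A single gene, Vav3 at -0.23, is called on the left, and 14 genes on both sides of 0 are called on the right.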

How the data were processed

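The authors deposited 1 table of log2 values for 22 arrays (72688 probe sets, of which 6918 were controls). That the values are log2 was read from their range, 1.59 to 14.23, and normalization software and method are not stated in any source used here; array medians lay between 5.10 and 5.27. Probe sets with exactly 1 symbol (30604) were kept where they exceeded their array's median on at least 5 arrays, and the one with the highest mean stood for each of 19050 genes. A model of the 4 group means over all 22 arrays was fitted with limma 3.58.1 in R 4.3.3 (18 residual and 4.34 prior degrees of freedom, two-sided moderated test, Benjamini-Hochberg over all genes of a comparison, 7 comparisons). A gene was called at an adjusted p under 0.05. The procedure was tested on simulated data. Intervals are 95% intervals of the fit. Intervals and p-values rest on the spread between arrays, which were taken as independent. Litter is not in the labels and could not be modelled. Precision is limited by how many arrays there are.

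The 6 genes and all lists were chosen with earlier results of these data known. Genes named in the text are the 6 members, list genes that were called or among the 3 with the smallest p in the average knockout or average sex comparison, the 5 most and 3 least correlated with Cdc42ep1, the 5 most correlated in deviations from group means with Cdc42ep1 or Cdc42, neighbouring genes, Sox9, and marker genes. Promoters come from RefSeq tables of build GRCm38.p6; the build behind the arrays is not named, so no array positions are given. The alternatives were other normalizations, filters, probe set rules, priors, array weights, a replicate block, fits of single comparisons and leaving out each array. A further gene list is not reported here.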

Additional observations from a re-analysis of the deposited data

Results flagged for a closer look

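Male control replicate 4 stood apart from its group for Cdc42ep4. Its value of 7.49 was the highest of the 6 male controls, whose other 5 arrays lay between 7.22 and 7.30. It was the single group so marked among 28 groups examined (7 genes, the 6 members and Sox9, in 4 groups), and chance marks about 1 in 20 groups.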

How the results depend on the processing

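No member changed the direction of a called difference under any alternative run. Cdc42ep1 differed between knockouts and controls by -0.41 to -0.34 in males, -0.41 to -0.35 in females and -0.40 to -0.36 on average, and Cdc42ep3 kept its average sex call throughout. Cdc42ep2 lost its average sex call with quantile normalization (-0.15), median centring (-0.14) and the replicate block (-0.15). The sex difference of Cdc42ep1, a description within each genotype, ran from -0.29 to -0.22 in controls and from -0.29 to -0.22 in knockouts. The 38 genes called between male knockouts and controls became 20 with only the arrays compared. The 6 called in females became 3 with median centring, 11 with array weights, 3 with only the arrays compared and 2 to 8 when single arrays were left out. The 47 called on average became 72 with array weights. The 1 gene called for the interaction became 0 with quantile normalization, median centring, no filter, or a trended and robust prior, 2 with array weights or the replicate block, and 0 to 2 when single arrays were left out. Median centring moved the share of called genes higher in males from 47.1% to 61.7% in controls. The replicate number did not pair the arrays: deviations of same-numbered arrays correlated at -0.42 to 0.28 (median -0.03), over 0.1 in 4 of 31 pairs, and 4 of 22 arrays correlated best with their own number. The block gave 30, 4 and 49 calls between knockouts and controls in males, in females and on average. Each member has 1 probe set of its own, so no fit of single probe sets was possible. The causes were not tested.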
